A study of Mus musculus with 8 samples.

Results

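The control embryonic stem cells of the series were profiled on 2 of its 8 arrays, both labelled as V6.5 mouse embryonic stem cells that carried hairpin 1 against green fluorescent protein (GFP). V6.5 is an established line of male mouse embryonic stem cells, and a hairpin against GFP has no target among the genes of the mouse. Per the labels, these cells went through the same steps as the knockdown cells of the series, with lentivirus in medium containing 8 µg/ml polybrene, then 4 µg/ml puromycin for 4 days, and RNA extraction on day 5. Both arrays are therefore of infected, drug-selected cells rather than of untouched ones, and both rest on 1 hairpin. The labels call them biological replicates and do not say whether they were infected separately, so the difference between them may be partly technical. The other 6 arrays, of knockdowns of condensin and cohesin subunits, were not compared with them.

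Embryonic stem cells are derived from the inner cell mass of the blastocyst. A core of transcription factors around Oct4 (gene Pou5f1), Sox2 and Nanog keeps them pluripotent, the cytokine LIF and BMP signals favour self-renewal, and FGF signals prime them to differentiate. They divide fast with a short G1 phase, and they express many lineage regulators weakly or not at all until they leave this state.

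Total RNA (100 ng per array) was labelled by a 3' in vitro transcription protocol and hybridised to 1-colour Affymetrix arrays. The deposited value is a linear intensity for each probe set, in arbitrary units. Each of 18140 genes was represented by its brightest probe set among those with exactly 1 gene symbol, and genes were ranked by the mean intensity of both arrays. Such a ranking orders brightness and not molecules, because probe sets differ in how well they bind their transcript. With 2 arrays of 1 group there was no test to run; both values are given for each gene described, and the difference between them is the error. Across the 18140 genes the log2 intensities of the arrays correlated with Pearson's r of 0.979 and Spearman's rho of 0.969, which describes these libraries and has no p-value because genes are not independent replicates.

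All 5 marker genes of the embryonic stem cell state were bright. Sox2 read 15202 on replicate 1 and 19892 on replicate 2. Nanog read 15590 and 14690, in the same order of arrays, which is kept from here on. Pou5f1 read 13641 and 11327. These 3 core factors lay above the 98th percentile of the ranking on the mean of both arrays. Klf4, a factor of the naive state that is also used in reprogramming, read 5780 and 7842. Esrrb, an orphan nuclear receptor that supports LIF-independent self-renewal when raised, read 3435 and 4019. A second probe set of Klf4 read 2104 and 2720, and the other 2 of Esrrb read 378 and 338, and 1389 and 1628, so the place of both genes depends on which probe set stands for them. Each of the 5 markers lay at percentile 92.8 or higher on the mean of both arrays, Esrrb being the lowest. With the median over its probe sets Esrrb lay at percentile 89.1. No other cell type was compared here, so the label of the cells was not tested.

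The promoters of Pou5f1 and Nanog are shown because they belong to the factors that define the cells. Each line gives the 120 bases before the start of the gene in RefSeq on mouse assembly GRCm38.p6, read along the strand of the gene, with each CG dinucleotide in capitals. The Pou5f1 sequence lies at chr17:35505912-35506031 on the plus strand and the Nanog sequence at chr6:122707369-122707488 on the plus strand.
Pou5f1: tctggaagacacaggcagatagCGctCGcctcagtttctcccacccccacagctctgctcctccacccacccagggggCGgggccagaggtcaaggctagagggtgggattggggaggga
Nanog: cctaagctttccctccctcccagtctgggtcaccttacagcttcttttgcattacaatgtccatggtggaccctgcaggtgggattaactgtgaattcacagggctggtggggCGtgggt
These stretches hold 3 and 1 CG dinucleotides. The observed number of CG over that expected from the C and G content, called the CpG ratio below, was 0.374 for Pou5f1 and 0.192 for Nanog over the 300 bases listed for each promoter.

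The ranking was divided into 3 classes. The abundant class was the top 5% of genes, 907 in number, and began at a mean intensity of 5114. A limit for weak signals came from 76 odorant, vomeronasal and taste receptor genes, which belong to sensory epithelia; the 95th percentile of their mean intensities was 54.3. The 5968 genes at or below it, 32.9% of all, were called near background, and the other 11265, or 62.1%, formed the middle class. The abundant class held 51.4% of the intensity summed over all genes, against 48.0% in the middle class and 0.635% near background. Median intensities were 8836, 463 and 19.7 in the same order of classes. Labelled control transcripts of bacteria and a phage, which the standard protocol adds before hybridisation, give a ruler on the same arrays. BioB, the one added at the lowest amount, averaged 1040 and 951, and 23.4% of genes were at or above its mean. The Cre control, the one added at the highest amount, averaged 35863 and 31100, and 38 genes reached it.

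**Figure D1:**
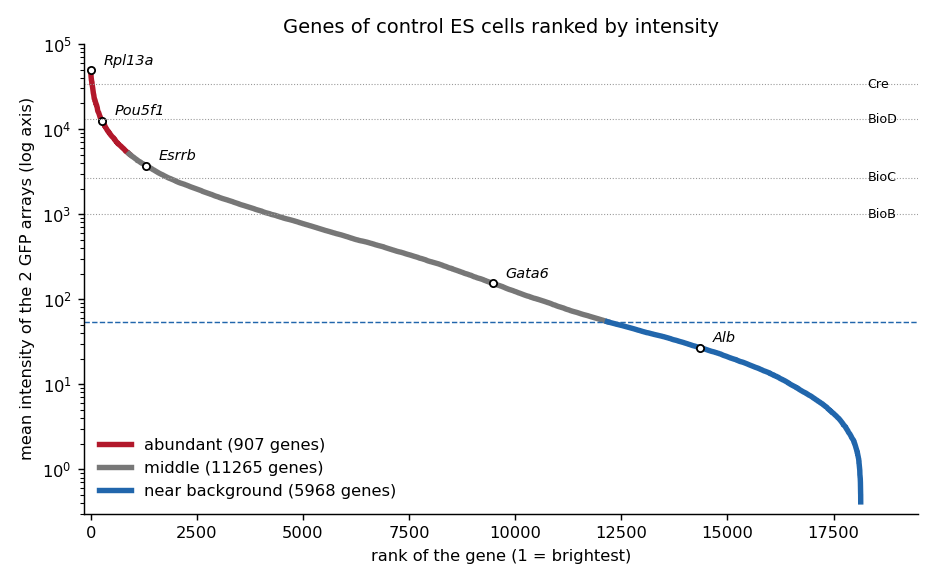
Mean intensity of both GFP arrays (vertical log axis, arbitrary units) against the rank of each of 18140 genes, with the abundant class in red, the middle class in grey and the genes near background in blue. Dotted lines mark the spiked bacterial and phage controls and the dashed line the limit of 54.3; Rpl13a and Pou5f1 stand in the abundant class, Esrrb and Gata6 in the middle class and Alb near background.

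Genes that build and run the ribosome filled the top of the ranking. Of the 20 brightest genes, 16 belonged to the list of cytosolic ribosomal proteins, and Rps3a1, a further ribosomal protein gene whose symbol the pattern of the list did not take, was a 17th. Rpl13a, a protein of the large subunit, was the brightest with 54756 and 43800. Rps18 of the small subunit read 52956 and 43560.5, and Rps20 read 49471 and 45147. The other 3 of the 20 were Dppa5a at 42496 and 35097, Eef1a1 at 41547 and 34281, and Hspa8 at 40589 and 34917. Dppa5a encodes an RNA-binding protein of pluripotent cells, Eef1a1 the elongation factor that brings aminoacyl-tRNA to the ribosome, and Hspa8 the constitutive Hsc70 chaperone. These 20 genes together held 4.03% of the summed intensity. Many of these places rest on probe sets marked as matching several transcripts or related genes. With only unmarked probe sets, Rps18 fell to percentile 41.2, Rpl35 to 48.9, Rps10 to 55.5, Rps20 to 73.1, Hspa8 to 75.2 and Rps24 to 96.4. Rpsa, Rpl22, Dppa5a and Eef1a1 stayed at percentile 99.96 or higher, and the rest of the 20 had no unmarked probe set.

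Of the 43 ribosomal protein genes measured, 35 were abundant, 7 lay in the middle and 1 near background, where 5.00% of all genes were abundant. Their median intensity was 34821, against 181 over all genes, and they held 6.19% of the summed intensity. The translation factors and their partners followed, with 23 of 25 abundant and a median of 21036. Among them were the poly(A)-binding protein gene Pabpc1, at 36735 and 31824, and Naca, of the complex that binds nascent chains, at 35361 and 30658. The dimmest of that list, Eif3b of initiation factor 3, still read 2638 and 3474. Of 29 Myc genes and genes of ribosome assembly, 10 were abundant and 19 in the middle. Npm1, the nucleolar chaperone nucleophosmin, read 33617 and 27814, and Odc1, the ornithine decarboxylase of polyamine synthesis and a known Myc target, read 15841 and 15506. The Myc family members, picked out after their values were seen, were spread out: Mycn read 4174 and 5052, Mycl 294 and 261, and Myc only 35.8 and 77.9, on either side of the background limit.

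RNA processing stood nearly as high. Of 26 genes of heterogeneous nuclear ribonucleoproteins and SR splicing factors, 22 were abundant and 4 in the middle, with a median of 8914. Hnrnpk, which binds C-rich RNA and DNA, read 21690 and 21022. The splicing factor gene Srsf1 read 20106 and 20213. The dimmest, Hnrnpll, read 1423 and 1652, so no gene of the list came near the background limit.

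Genes of both main routes to ATP were bright. Of 78 nuclear genes of oxidative phosphorylation, 59 were abundant, 17 in the middle and 2 near background, and their median was 8321. Uqcrb, a subunit of complex III, read 37278 and 31901, and Cox5a, of complex IV, read 32403 and 28774. Forms of complex IV subunits that belong to other tissues, again picked out after their values were seen, stood low. The muscle forms Cox6a2 and Cox8b read 59.2 and 59.7, and 5.06 and 34.2, whereas Cox6a1, the widely expressed form, read 29076 and 23113. Glycolysis had 11 of 19 genes in the abundant class and 8 in the middle. Aldolase A (Aldoa) read 36507 and 28016, the glucose transporter gene Slc2a3 28043 and 24841, and lactate dehydrogenase A (Ldha) 27609 and 24754. Slc16a1, which encodes a lactate and pyruvate carrier, was the dimmest at 55.1 and 58.4.

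Protein folding and turnover had 19 of 27 chaperone genes and 19 of 27 proteasome genes in the abundant class. Hsp90aa1 read 37483 and 32186, and Cct4, a subunit of the chaperonin that folds actin and tubulin, read 29806 and 26467. The proteasome core gene Psma3 read 20566 and 17486. Of 11 genes of the immunoproteasome, the variant used in antigen presentation, and of the MHC class I pathway, none was abundant, where 5.00% of all genes were. Near background lay 2 of them (18.2%), against 32.9% of all genes. Psmb8, a catalytic subunit of the immunoproteasome, read 50.9 and 4.67, and B2m, the light chain of MHC class I, read 1921 and 1571. Of 23 cytoskeletal genes 16 were abundant, with Actb, the cytoplasmic actin, at 25394 and 21556, and the actin-sequestering thymosin gene Tmsb10 at 36340 and 30890.

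The machinery of cell division was also bright. Of 27 mitosis genes 17 were abundant and 10 in the middle, with a median of 7072. Cks2, a partner of cyclin-dependent kinases, read 27171 and 20597, and Top2a, which untangles sister chromatids, read 25382 and 18456. The dimmest of the list was the kinesin gene Cenpe with 2090 and 1768. Of 32 replication genes 13 were abundant and 19 in the middle. Pcna, the sliding clamp of DNA polymerases, read 24239 and 19658, and Mcm7 of the replicative helicase read 20788 and 17881. Tyms, thymidylate synthase, was the dimmest at 151 and 106.

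Regulators of the G1 phase were mostly in the middle class. Among 15 cyclins and kinases of G1 and its exit, 2 were abundant, Ccna2 with 8067 and 6759 and Cdk4 with 6966 and 5523. These 2 were 13.3% of the list, where 5.00% of all genes were abundant. Cyclin D1 (Ccnd1) read 1930 and 2559, and Cdk6, a kinase that pairs with D-type cyclins, read 122 and 169. All 8 genes of cyclin-dependent kinase inhibitors lay in the middle class, which held 62.1% of all genes. Cdkn1a, the p21 gene that p53 induces, read 2655 and 3487, Cdkn1b (p27) 1469 and 1602, and Cdkn2a, the Ink4a/Arf locus, 611 and 612. The lowest of the 8 was Cdkn2c, at 374 and 240.

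The subunits targeted elsewhere in the series were well above background in the control cells. Smc2, an ATPase of both condensins, was abundant with 8756 and 7146. Smc1a, an ATPase of cohesin, read 4165 and 3662, and Ncaph2, a subunit of condensin II, read 3469 and 3168, both in the middle class. These places rest on the brightest probe set. With the median over the probe sets of each gene, Smc2 moved from percentile 97.1 to 73.9 and left the abundant class, Smc1a moved from 93.2 to 66.3, and Ncaph2 from 91.8 to 88.0. Of 21 condensin and cohesin genes 5 were abundant, 16 were in the middle and none was near background. The brightest was Rad21, the cohesin subunit that closes the ring, at 14325 and 14429. The dimmest was Rec8, its meiotic counterpart, at 271 and 199.

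**Figure D2:**
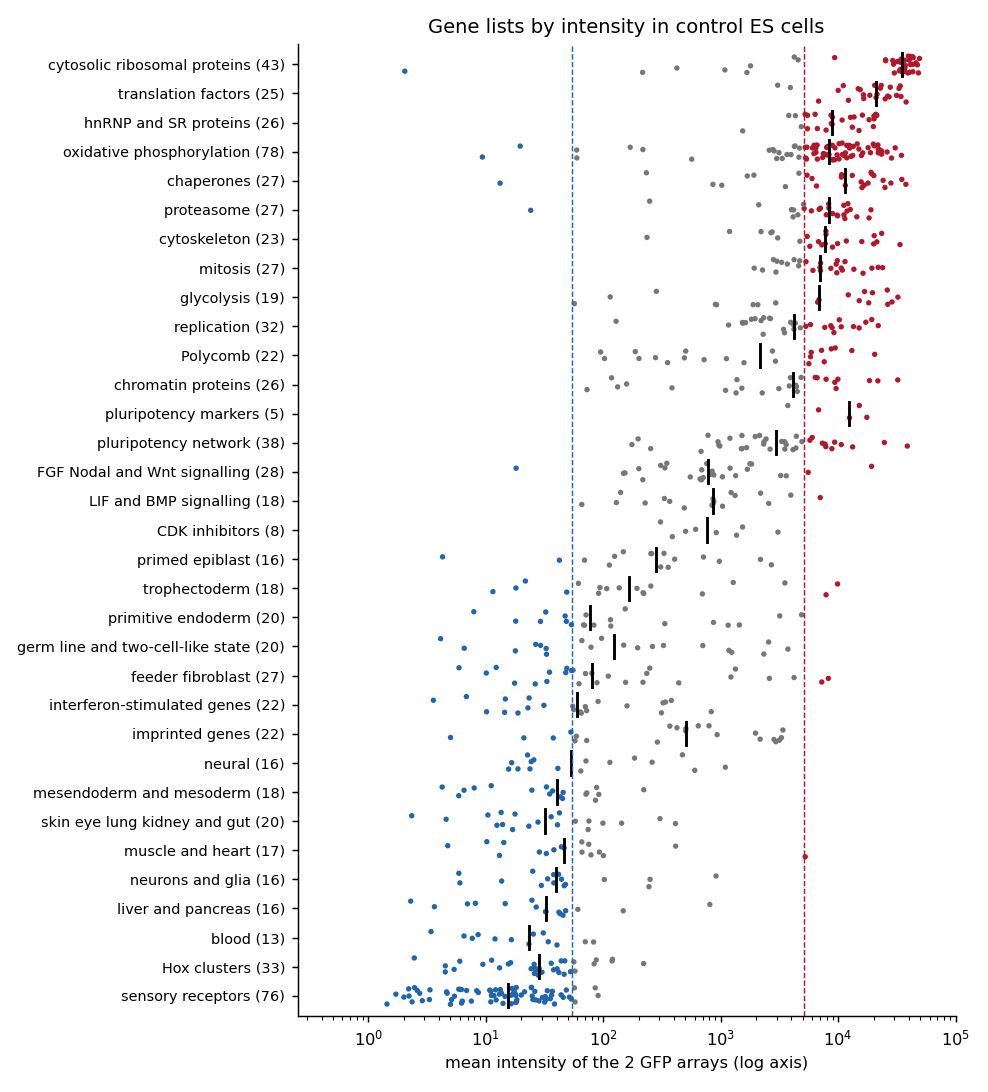
Mean intensity of both GFP arrays (horizontal log axis, arbitrary units) for the measured genes of 33 lists, with 1 point for each gene, a black bar at the median of the list and the number of genes in brackets. Dashed lines mark the limit of 54.3 and the lower edge of the abundant class at 5114; ribosomal proteins lie mostly right of the upper edge, and sensory receptors, Hox genes and blood genes mostly left of the limit.

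Chromatin genes were split between the upper classes. Of 26 genes of histone variants, high-mobility-group proteins and other chromatin proteins, 9 were abundant and 17 in the middle. Hmgn1, which binds nucleosomes, read 33717 and 30625. Hmga2, an architectural protein of embryonic tissues, was the dimmest at 57.1 and 88.3. Of 22 Polycomb genes 9 were abundant, led by Rbbp4, a histone chaperone shared with other complexes, at 21285 and 19664. Phc1, a subunit of the canonical complex PRC1, read 9070 and 9821, while Pcgf2 (Mel18), of the same complex, read 81.9 and 108.

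Of 38 other genes of the pluripotency network, 11 were abundant, 27 lay in the middle and none was near background. Their median was 2972. Tdgf1 (Cripto), a co-receptor of Nodal, read 25391 and 24121. Trim28, a corepressor that silences retroelements, read 12160 and 14394, and Zfp42 (Rex1), a classical stem cell marker, read 8742 and 9929. Fgf4, the growth factor that the stem cells themselves secrete, was also abundant with 8279 and 7191. The abundant part of the network thus held a co-receptor, a corepressor and a ligand as well as transcription factors such as Sall4, which read 6878 and 7799.

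Genes of DNA methylation and demethylation appeared at several levels of the network. Tet1, which oxidises 5-methylcytosine, was abundant with 6306 and 9393, and Tet2 read 1760 and 2173. Dnmt3l, a cofactor of the de novo methyltransferases, read 3485 and 5331. Dppa3 (Stella), which protects methylation in the zygote, was one of the genes that differed most within the network, at 3340 and 1925. Among further transcription factors of the network, all in the middle class, Klf2 read 4940 and 4886, Tfcp2l1 2046 and 2822, Prdm14 2159 and 2487, and Tbx3 1092 and 1905. Between the RNA-binding proteins that block let-7 microRNA maturation, Lin28a read 1324 and 1712 and Lin28b 270 and 237. The lowest member was Foxd3, a forkhead repressor needed to maintain the stem cells, at 123 and 227. The remaining genes of the network lay between 163 and 11367 on single arrays, and 13 of the 38 were higher on replicate 1.

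**Figure D3:**
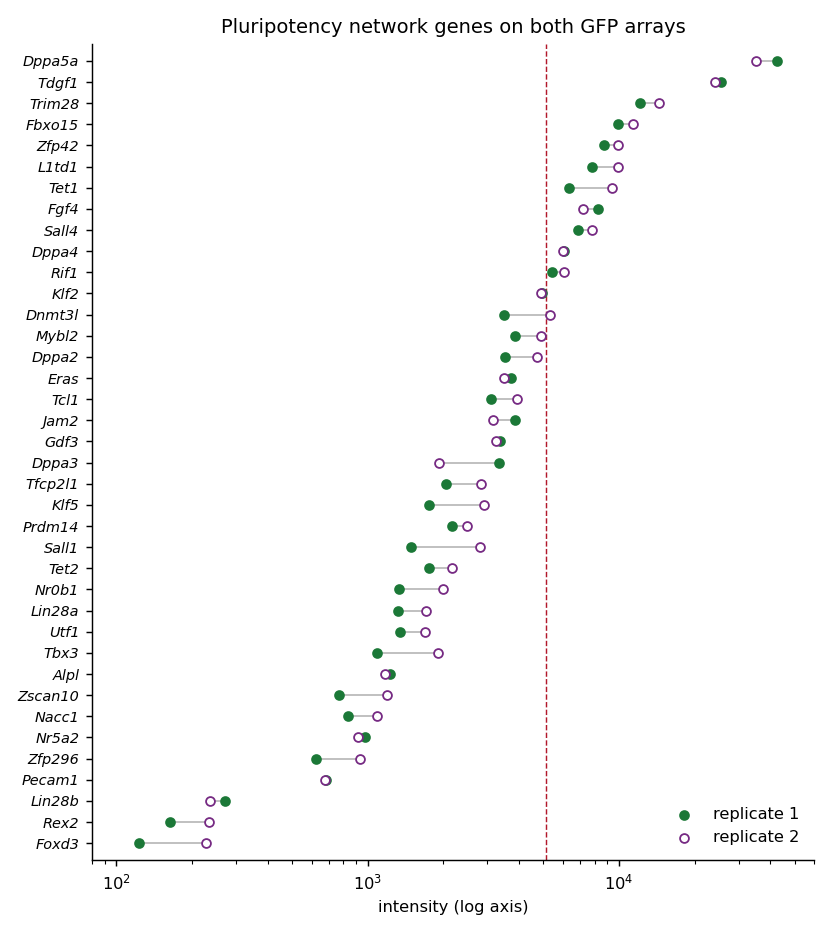
Intensity (horizontal log axis, arbitrary units) of 38 pluripotency network genes on replicate 1 (filled green) and replicate 2 (open purple), ordered by their mean, with the lower edge of the abundant class at 5114 as a dashed line. Dppa5a and Tdgf1 lie to the right of all others, Dnmt3l spans the edge with 3485 and 5331, and Foxd3 is lowest.

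Signalling genes were mostly in the middle class, which held 62.1% of all genes. Of 18 LIF and BMP pathway genes 17 were in the middle and 1 was abundant, Socs3, the feedback inhibitor that LIF induces, with 6337 and 7750. The LIF receptor gene Lifr read 2393 and 2730, and the BMP receptor gene Bmpr1a 2189 and 2186. Smad4, the common mediator of BMP and Nodal signals, read 3863 and 4044. Id3, a known BMP target, was lowest at 57.9 and 73.3. Of 28 FGF, Nodal and Wnt pathway genes 2 were abundant, 25 in the middle and 1 near background. The abundant shares of both lists, 5.56% and 7.14%, were close to the 5.00% of all genes. Their shares near background, 0% and 3.57%, were below the 32.9% of all genes. Beta-catenin (Ctnnb1), which serves both Wnt signalling and adhesion, read 19694 and 18818. Etv5, a transcription factor induced by FGF, read 2547 and 3936, and Sp5, a known Wnt target, read 26.5 and 9.75.

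At the cell surface 4 of 18 genes (22.2%) were abundant, 13 (72.2%) in the middle and 1 (5.56%) near background. Over all genes these shares were 5.00%, 62.1% and 32.9%. E-cadherin (Cdh1), the adhesion protein of epithelial colonies, read 11662 and 14327. The tetraspanin gene Cd9 read 13429 and 11464, and Epcam, another epithelial adhesion protein, read 10050 and 6258. The fucosyltransferase gene Fut4 was near background at 46.1 and 8.64.

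Lists of early lineages differed in how many of their genes were near background, where 32.9% of all genes lay. None of 16 primed epiblast genes was abundant, 14 lay in the middle and 2 (12.5%) near background. Otx2, an early factor of the exit from the naive state, read 647 and 1301, and Dnmt3b, a de novo methyltransferase, read 1850 and 2511. Fgf5, the usual marker of the primed epiblast, read 5.67 and 2.90. In RNA from a whole culture, fewer cells of a type and less RNA in each cell cannot be told apart, which applies to every lineage list that follows.

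Of 18 trophectoderm genes 2 were abundant, 12 in the middle and 4 (22.2%) near background. The abundant ones were the keratins of simple epithelia, Krt18 with 8723 and 11051 and Krt8 with 6143 and 9637, which also count among the cytoskeletal genes here. Tfap2c, a transcription factor of trophoblast and germ cells, read 2816 and 4225. Cdx2, the factor that specifies the trophectoderm, was near background at 7.25 and 28.8. Of 20 primitive endoderm genes 13 were in the middle and 7 near background, about the share of all genes. The brightest were the matrix genes Sparc with 4151 and 5616, Lamb1 with 3100 and 3264, and Col4a1 with 1032 and 1851. Gata6, a transcription factor that drives the lineage, read 131 and 176, and Gata4 33.2 and 61.5. Afp, the fetal serum protein made by visceral endoderm, read 4.42 and 11.4. Cdx2, Gata6 and Gata4 were picked out after their values were seen and do not stand for their lists.

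Of 18 mesendoderm and mesoderm genes 12 (66.7%) were near background and 6 in the middle, with Eomes, a T-box factor also used in trophoblast, at 122 and 321, and Evx1 at 2.29 and 6.21. Of 16 neural genes 8 were near background and 8 in the middle. Neurod1, a proneural transcription factor, stood highest at 1137 and 1054, followed by Olig2, a factor of the oligodendrocyte and motor neuron lineages, at 545 and 658. Sox1, the early neural plate marker, read 261 and 260, and the Notch target Hes5 read 21.9 and 9.35.

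Of 20 genes of the germ line and the 2-cell-like state 13 were in the middle and 7 near background, a split close to the 62.1% and 32.9% of all genes. Sycp3, a protein of the synaptonemal complex, read 4834 and 2635. The RNA helicase gene Ddx4 (Vasa) read 2852 and 2261, and the RNA-binding gene Dazl 1830 and 2832. Stra8, the meiotic gene induced by retinoic acid, read 1904 and 443, a wide gap for its brightness. The dimmest of the list, Tdpoz1, read 3.82 and 4.42.

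Feeder fibroblasts, on which such cells are often grown, were checked with 27 genes, of which 2 were abundant, 15 in the middle and 10 near background. Their summed intensity was 22001 on replicate 1 and 31866 on replicate 2. Fn1 with 7013 and 9505, Vim with 5307 and 9207 and Acta2 with 3077 and 5350 made up most of it. Timp1, a secreted inhibitor of metalloproteinases, was the next brightest at 2702 and 2486. The collagen genes Col1a1, at 36.3 and 71.1, and Col1a2, at 127 and 183, and the matrix gene Lum, at 15.6 and 4.59, were picked out after their values were seen. Dcn, another matrix gene, was the dimmest of the list at 5.66 and 6.16. The shares of the list in the abundant class (7.41%) and near background (37.0%) were close to the 5.00% and 32.9% of all genes. None of the 27 was at 0. What part feeder cells have in any of the values given was not tested.

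Of 17 p53 target and apoptosis genes 5 (29.4%) were abundant, where 5.00% of all genes were. A further 11 lay in the middle and 1 (5.88%) near background, against 32.9% of all genes. The abundant ones included Ccng1, a p53 target, with 10227 and 10214, and Mcl1, a survival factor of the Bcl2 family, with 14666 and 13942. Bcl2 itself read 6.74 and 84.8, too far apart to place it. None of 22 interferon-stimulated genes was abundant, 13 were in the middle and 9 (40.9%) near background, where 32.9% of all genes were, and their median was 59.9. Irf1 was the brightest at 824 and 839, and Ifit1, a classical interferon target, read 3.33 and 3.83.

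Imprinted genes, which are read from 1 parental allele, were in the middle class for 18 of 22 (81.8%) and near background for 4 (18.2%). Over all genes these shares were 62.1% and 32.9%. Meg3, a maternally expressed long noncoding RNA, read 3953 and 2814, and Grb10, an adaptor that restrains growth signals, 3723 and 2856. Of 7 genes used to check the sex chromosomes 4 (57.1%) were in the middle and 3 (42.9%) near background. The Y-linked Eif2s3y read 1041 and 997 and Uty 143 and 141, while Kdm5d and Zfy2, also Y-linked, were near background at 43.7 and 43.0, and 33.5 and 9.91. Xist, the RNA that coats the inactive X chromosome, read 197 and 202. Tsix, its antisense RNA, read 25.6 and 21.3, and Sry was discordant at 30.1 and 122.

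At the foot of the ranking lay genes of differentiated tissues, Hox genes and sensory receptors. Of 82 genes in 5 lists of blood, liver and pancreas, muscle and heart, neurons and glia, and other organs, 58 were near background, or 70.7%, where 32.9% of all genes were. Alb, serum albumin, read 24.3 and 29.4, Alas2, the erythroid enzyme of haem synthesis, 2.23 and 4.60, and Slc17a6, a vesicular glutamate transporter, 7.14 and 4.65. A further 23 were in the middle class, of which Apoa2, an apolipoprotein of the liver, read 912 and 704, and Nefl, the light neurofilament subunit, 996 and 830. A single one was abundant, Mylpf, the regulatory light chain of fast skeletal muscle myosin, with 6063 and 4418. Of 33 Hox genes 26 were near background, and the brightest was Hoxa5 at 175 and 267. Of the 76 sensory receptor genes 4 lay above the limit that they set, the highest being Vmn2r26 at 95.7 and 85.1.

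The genes at the class edges show how sharp these divisions are. Rbm25, just inside the abundant class, read 5605 and 4624, and Rcc2, just outside it, read 4914 and 5303, so the arrays placed them in opposite order. At the lower limit Nrxn3, just inside the near-background class, read 21.0 and 87.5, and Myo7b, just outside it, read 30.6 and 78.1. At the middle of the ranking, Rnf122 read 181 and 182 and Palm 224 and 139. When each array was ranked alone, 838 of the 907 brightest genes, or 92.4%, were shared. By the limit of each array, 5777 genes were near background on replicate 1 and 6806 on replicate 2, and 5552 were so on both, which is 96.1% of the first and 81.6% of the second set.

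The median absolute log2 difference between the arrays, with 16 added to each intensity, was 0.18 in the abundant class, 0.22 in the middle and 0.43 near background. With 64 added the same medians were 0.18, 0.19 and 0.18, so the order of the classes depends on that constant. With 16 added, no abundant gene differed by more than 2-fold, against 263 in the middle class (2.33%) and 1097 near background (18.4%). The widest among abundant genes were S100a10, a member of the S100 family, with 3798 and 7283, and Vim, the intermediate filament vimentin. In the other direction the widest was 2410006H16Rik with 15339 and 9019, followed by Selenoh, a nuclear selenoprotein, with 17156 and 10548.

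Some functional groups differed in 1 direction between the arrays. Of the 43 ribosomal protein genes 41 were higher on replicate 1, with a median log2 difference (replicate 1 over replicate 2) of 0.30, and 25 of 27 mitosis genes were, with a median of 0.24. Abundant genes in general leaned the same way, 73.3% of them being higher on replicate 1, against 45.3% in the middle class. After quantile normalization, which removes that lean, 34 ribosomal protein genes and 24 mitosis genes were still higher on replicate 1, with medians of 0.05 and 0.20. In the other direction 19 of 20 primitive endoderm genes and 17 of 18 trophectoderm genes were higher on replicate 2, with medians of -0.54 and -0.47, and 16 of each were after quantile normalization. Of the 28 FGF, Nodal and Wnt genes 23 were higher on replicate 2. Over all genes 47.5% were higher on replicate 1. The lists named so far were not the only ones that leaned. On replicate 1, 61 of 78 oxidative phosphorylation, 22 of 25 translation factor, 5 of 26 chromatin and 2 of 18 LIF and BMP genes were higher. After quantile normalization these counts were 53, 10, 3 and 1. No test applies to a difference between 2 arrays, and its source was not tested.

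**Figure D4:**
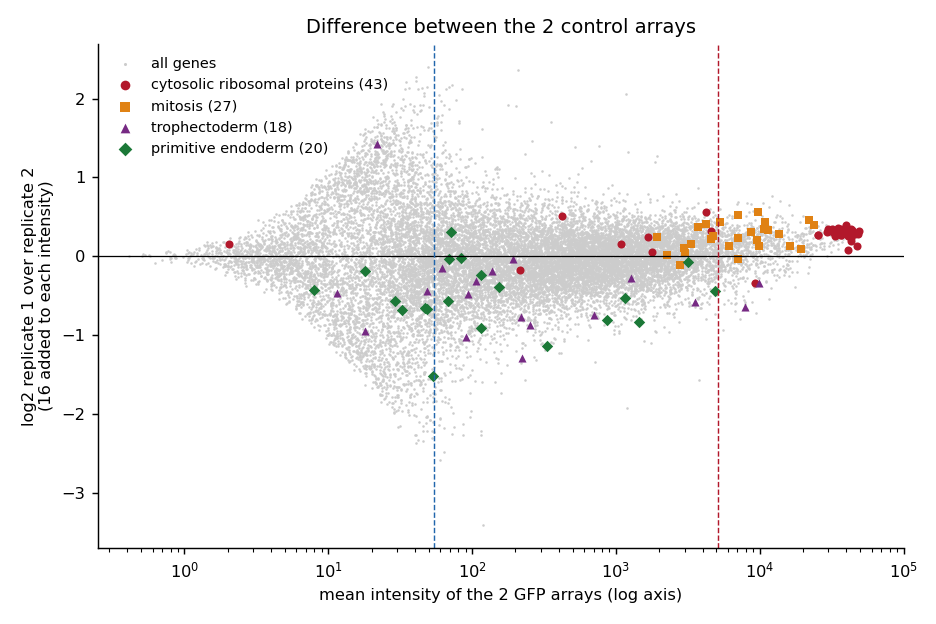
Log2 ratio of replicate 1 over replicate 2 (vertical axis, 16 added to each intensity) against mean intensity (horizontal log axis) for all 18140 genes in grey and 4 lists in colour. Ribosomal protein and mitosis genes lie mostly above the line at 0, primitive endoderm and trophectoderm genes mostly below it, and the grey cloud widens towards the limit of 54.3 (blue dashed line; red, edge of the abundant class).

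A dim reading need not mean a silent gene. Of 234 genes in 6 lists of complexes and pathways of dividing cells (ribosomal proteins, proteasome, oxidative phosphorylation, chaperones, replication and mitosis), 162 were abundant and 5 were near background: Rps16, Psmd2, Cox8b, Ndufb4 and Cct8. Rps16, of the small ribosomal subunit, read 3.04 and 1.05 on its single probe set with 1 symbol, while a probe set that lists it with other genes averaged 39593. Ndufb4, of complex I, read 4.63 and 14.1, and a probe set listing it with other genes averaged 12497. These bright readings may come in part from the other genes listed. For Psmd2, Cct8 and Cox8b, the last being the muscle form named above, no other probe set was found. Dim genes above the limit were not checked in this way. Among them Slc16a1, at 55.1 and 58.4, rested on 1 probe set, and Tyms, at 151 and 106, on the brightest of 4. Among the 108 probe sets that list a ribosomal protein gene together with others, 81 were at or above the edge of the abundant class, so the ranking leaves out part of this family. Of 652 abundant genes with 2 or more probe sets, 179 (27.5%) had at least 1 probe set near background. Genes with more probe sets also had more chances to be bright: 28.1% of abundant genes had a single probe set, against 40.8% in the middle class and 72.5% near background. The array maker marks some probe sets as matching several transcripts or related genes. Probe sets without any mark stood for 41.3% of abundant genes, 76.1% of the middle class and 89.5% near background. Those marked with s or x in the identifier stood for 28.0%, 10.3% and 4.14% in the same order. For ribosomal proteins, which have many near-identical pseudogenes, the readings of single genes are uncertain for this reason. These checks were chosen after the values were seen.

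The classes differed in what kind of gene they held. Long noncoding RNA genes made up 0.772% of the abundant class, 2.91% of the middle class and 17.1% of the genes near background. Among protein-coding genes only, the median span of a gene on the chromosome was 15.0 kb in the abundant class, 24.7 kb in the middle and 17.3 kb near background. X-linked genes were 3.97%, 3.21% and 3.65% of the classes in the same order.

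Promoters differed in their CpG content, a feature that in mammals goes with CpG islands, which are typical of housekeeping and developmental genes. Over 300 bases (250 before the start and 50 after it) the median CpG ratio was 0.857 for the 752 abundant genes with a listed promoter and 0.742 for 8816 genes of the middle class, against 0.674 over all 13221 genes. For the class near background 79.9% of genes had a listed promoter, short of the 80% required, so that value is void and not given, as are those of the translation factors, the pluripotency network and the Hox genes. Ribosomal protein genes had a median of 0.918 and oxidative phosphorylation genes 0.795. The 5 tissue lists had 0.259 and the sensory receptors 0.138, so both sets at the foot of the ranking lay far below the median of all genes.

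**Figure D5:**
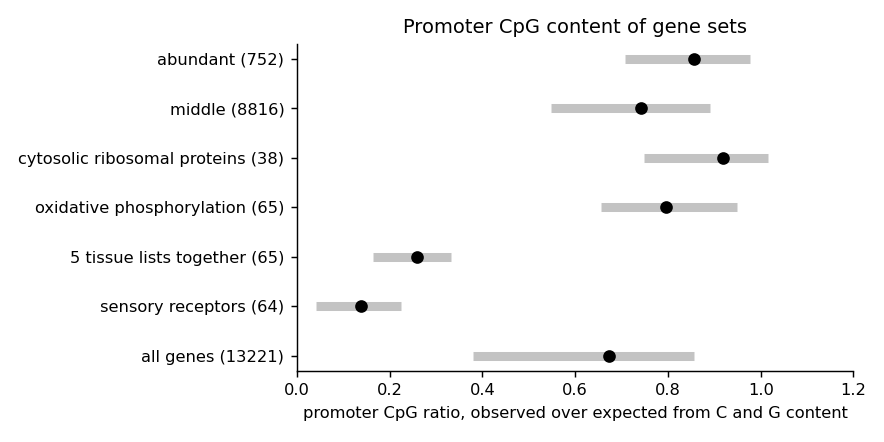
Promoter CpG ratio (horizontal axis, observed over expected) of 7 sets of protein-coding genes, with the median as a point, the quartiles as a grey bar and the number of genes with a listed promoter in brackets. The abundant class at 0.857 and ribosomal protein genes at 0.918 lie right of all genes at 0.674, the tissue lists at 0.259 and sensory receptors at 0.138 left of them.

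Single promoters show the contrast. The lines below again give the 120 bases before the start in RefSeq on GRCm38.p6, along the strand of the gene, with CG in capitals, for the brightest ribosomal protein gene, the brightest and the dimmest tissue gene, and the brightest and the dimmest receptor gene with a listed promoter. They lie at chr7:45128746-45128865 (minus strand) for Rpl13a, chr7:127211488-127211607 (plus) for Mylpf, chr12:103738190-103738309 (minus) for Serpina1b, chr6:124024638-124024757 (plus) for Vmn2r26 and chr6:57137233-57137352 (plus) for Vmn1r11.
Rpl13a: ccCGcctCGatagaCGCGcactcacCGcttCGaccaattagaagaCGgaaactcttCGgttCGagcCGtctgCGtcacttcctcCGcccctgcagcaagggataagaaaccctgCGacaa
Mylpf: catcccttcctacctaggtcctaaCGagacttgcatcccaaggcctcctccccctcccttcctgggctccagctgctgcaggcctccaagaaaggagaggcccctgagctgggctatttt
Serpina1b: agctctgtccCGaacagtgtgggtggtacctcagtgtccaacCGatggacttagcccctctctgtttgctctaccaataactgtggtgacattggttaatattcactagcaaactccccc
Vmn2r26: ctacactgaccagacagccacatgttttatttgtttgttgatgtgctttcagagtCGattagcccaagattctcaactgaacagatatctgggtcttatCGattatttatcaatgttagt
Vmn1r11: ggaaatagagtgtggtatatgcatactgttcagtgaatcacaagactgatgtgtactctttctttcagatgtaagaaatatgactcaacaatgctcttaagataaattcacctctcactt
The Rpl13a stretch holds 13 CG dinucleotides, Serpina1b and Vmn2r26 hold 2 each, Mylpf 1 and Vmn1r11 none. Mylpf, the tissue gene in the abundant class, thus has a CpG-poor promoter like the dim genes (CpG ratio 0.0890), and the low ratios of Pou5f1 and Nanog above belong to abundant genes as well. A low CpG content was therefore not limited to dim genes.

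Further promoter features were searched after the values were seen. The letters TATAAA, on either strand within 50 bases before the start, occurred in 2.39% of abundant and 2.43% of middle-class promoters, against 4.02% over all genes. The share was 18.5% in the tissue lists (12 of 65 promoters) but 4.69% in the sensory receptors, near that of all genes. A run of at least 8 C or T was searched within 30 bases around the start (20 before it and 10 from it). It occurred in 47.4% of ribosomal protein genes (18 of 38 promoters), against 15.3% over all genes. Its share was 21.5% in the tissue lists, 10.8% in oxidative phosphorylation and 9.38% in sensory receptors. Ribosomal protein and elongation factor transcripts are known to begin with such a run, the 5' terminal oligopyrimidine motif through which growth signals control their translation. The lines below show those 30 bases with the run in capitals for 4 genes that have it, so they do not stand for their lists. Rps20, Rps29 and Rps3a1, ranked between Rps18 and Rpl38, are not shown. Only 72.0% of the translation factors, the list of Eef1a1, had a listed promoter, so their share is void. The genes are 3 of the brightest ribosomal protein genes and Eef1a1, at chr7:45128736-45128765 (minus) for Rpl13a, chr17:33955656-33955685 (minus) for Rps18, chr11:114668560-114668589 (plus) for Rpl38 and chr9:78481715-78481744 (minus) for Eef1a1.
Rpl13a: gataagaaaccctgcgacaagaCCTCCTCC
Rps18: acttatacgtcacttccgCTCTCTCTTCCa
Rpl38: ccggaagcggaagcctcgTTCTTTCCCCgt
Eef1a1: cgtgtgctggctccgCCCTCTTCCCgaggg
A match is a run of letters and does not show that a given transcript starts there.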

How the data were processed

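The authors deposited 1 linear intensity for each of 44903 probe sets and array, from 1-colour Affymetrix mouse arrays labelled by the 3' in vitro transcription protocol, per the labels' protocols. The method that turned probes into probe sets was not given in the sources used here. Means trimmed by 2% at each end were 489.6 and 490.0 on replicates 1 and 2, so the arrays had been brought to a like mean; array medians were 69.4 and 74.3 for the GFP arrays. Detection calls and raw scans were not used here. The number of arrays, 2, limits the precision.

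Probe sets were named by the platform annotation: 34758 had 1 symbol (34554 matched by gene identifier to RefSeq GRCm38.p6, 0 symbols changed), 926 had several and 9155 none; 64 array controls were left out. The brightest of a gene's probe sets by mean of the GFP arrays stood for it, and no further normalization was applied. Log2 differences were computed from the deposited intensity with 16 added. Classes were set by rank (top 5%) and by the 95th percentile of sensory receptor genes. Genes were placed in 40 lists (951 distinct genes measured); 4 lists came from symbol patterns, and some genes, such as Vim, Krt8, Krt18 and Eomes, are in more than 1. The named genes were the 20 brightest, 5 at the middle rank, 2 on each side of each class edge, the 5 markers, the 4 brightest and the dimmest of each list, all genes of the pluripotency network, CDK inhibitors, sex chromosomes and the series' targets, and the 5 abundant genes with the largest difference between arrays; any other gene named was chosen after its values were seen. The members and lists were chosen with earlier results of these data known.

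Promoters came from RefSeq (GRCm38.p6). CpG ratios used protein-coding genes outside chromosome 18, a restriction chosen after the files were seen, and the mean over a gene's listed promoters. Sets with under 80% of genes listed were void. Python 3.11.15, numpy 2.4.6, pandas 2.3.3 and matplotlib 3.10.9 were used, and the class and error computations were checked on simulated data. No test was run, since only 1 group was described.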

Additional observations from a re-analysis of the deposited data

How the results depend on the processing

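With 2 arrays of 1 hairpin there is no test, and every statement above is a description. No paired analysis was possible because only 1 group was described and its results come from no test. Of 96 recomputed main values, 67 moved by less than the spread between the arrays, or, for counts and for the difference between the arrays, by less than 1.5 times. Where 1 array was left out, that spread came from the same single-array values. Those settings therefore say little about stability, though they are among the 96.

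The receptor limit ran from 50.8 to 77.3 on single arrays and was 86.7 with the 99th percentile of the receptors. The share of genes near background ran from 31.7% to 37.4% on single arrays; it was 40.0% with the 99th percentile and 37.4% with the array median as the limit. The lower edge of the abundant class fell to 3235 with the median over a gene's probe sets and to 3561 with plain probe sets (those whose identifier carries no mark of matching several transcripts), against 15825 with the top 1% and 2694 with the top 10% as abundant. In the same order the abundant class held 56.1%, 47.6%, 22.0% and 67.3% of the summed intensity. Ribosomal protein genes in that class numbered 10 with plain probe sets, where 22 of the 43 had one. With the top 1% as abundant, 1 of the 5 markers, 2 pluripotency network genes and 0 feeder genes were in it, and with the top 10%, 19 network genes were. Near background the median log2 difference between the arrays was 0.86 with 1 added and 0.18 with 64 added; with 64 the abundant and middle classes had 0.18 and 0.19, so the order of the classes was lost.

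The CpG ratio of the abundant class ran from 0.854 to 0.856 on single arrays; it was 0.840 with the median over probe sets, 0.851 with plain probe sets, 0.895 with the top 1% and 0.840 with the top 10%. That of the middle class ran from 0.740 to 0.751 on single arrays; it was 0.733 and 0.757 with the 90th and 99th percentile of the receptors and 0.733 with the top 10%. The abundant class was above the middle class in each. Of the 270 named genes, 236 were in the same class with the median over probe sets and 254 and 261 with replicate 1 or 2 left out; with plain probe sets 223 were measured and 188 of them were in the same class. The count of ribosomal protein genes higher on replicate 1 was 19 with plain probe sets, of the 22 that had one, an alternative added after seeing the data, as was quantile normalization for the lists that differed between the arrays. Protein length by class was not run, because no protein sequences were used here.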

Other observations

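Probe sets outside the ranking also carried bright signals. Of 9155 probe sets with no symbol, 95 averaged at or above the edge of the abundant class, the highest at 45582, and 70.2% were at or below the limit of 54.3. Of the 926 probe sets that list several genes, 185 were at or above the edge, against 1314 (3.78%) of the 34758 probe sets with 1 symbol.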
